A study of Caenorhabditis elegans with 2 samples.

Results

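The 8 genes vha-8 to vha-15 of Caenorhabditis elegans encode subunits of the soluble V1 sector of the vacuolar proton pump, and they were examined in chromatin immunoprecipitation data for AKIR-1, the worm akirin. They are 8 of 19973 nuclear protein-coding genes. For each gene, every peak was taken whose summit, the base of highest signal, lay inside the gene or within 1000 bp upstream of any annotated transcript start, a stretch called the window below. The genes were chosen from earlier results of the same peak lists, that is, with the signal values of some of their peaks known, so their values are given as a description with no test. The single group of the study was strain IG1654, whose transgene frSi12, an insertion on chromosome II, drives AKIR-1 with a C-terminal GFP-FLAG tag from the akir-1 promoter. Whole young adults of both sexes, pooled, were collected at 70 hours after synchronization by starvation at the first larval stage, and chromatin was precipitated with an antibody against GFP. There were 2 biological replicates, numbered 3 and 4, and no untagged or untreated group among the samples used here. The signal comes from all tissues in which the akir-1 promoter is active, and the labels do not say whether the endogenous akir-1 gene was intact.

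The vacuolar proton pump, or V-ATPase, acidifies lysosomes, endosomes and secretory compartments, and in worms it also serves the excretory canal, the epidermis and the intestine. Its V1 sector hydrolyses ATP in the cytosol, and the membrane-embedded V0 sector carries the protons. Within V1, VHA-13 and VHA-12 are the A and B subunits that form the ATP-hydrolysing head, VHA-14 and VHA-9 (D and F) belong to the central rotor, VHA-8 and VHA-10 (E and G) to the outer stalks, and VHA-11 and VHA-15 (C and H) link or regulate the 2 sectors. Akirins are nuclear proteins without a DNA-binding domain of their own that take part in transcriptional regulation.

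Strong peaks lay upstream of 3 of the 8 genes: vha-12, vha-13 and vha-8. The sequence of 201 bases centred on the pooled summit is shown for vha-12 and vha-8, and for a peak inside vha-12 that was the strongest at this gene in replicate 3. The vha-13 summit lies in an annotated untranslated region of another gene and its sequence is not shown. Sequences are of the plus strand of ce11 (the same assembly as WBcel235, from RefSeq), 5′ to 3′, and the summit is base 101. Capitals mark every match, on either strand, to the words CACGTG (the core of an E-box, bound by basic helix-loop-helix factors such as HLH-30), TGATAA (bound by GATA factors), GAGAGA or CTGCGTC.
vha-12, upstream, chrX:4190736-4190936: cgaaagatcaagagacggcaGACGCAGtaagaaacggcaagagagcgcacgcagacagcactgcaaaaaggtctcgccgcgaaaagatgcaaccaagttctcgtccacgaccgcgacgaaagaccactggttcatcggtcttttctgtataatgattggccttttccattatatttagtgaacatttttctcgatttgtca
vha-8, upstream, chrIV:6790522-6790722: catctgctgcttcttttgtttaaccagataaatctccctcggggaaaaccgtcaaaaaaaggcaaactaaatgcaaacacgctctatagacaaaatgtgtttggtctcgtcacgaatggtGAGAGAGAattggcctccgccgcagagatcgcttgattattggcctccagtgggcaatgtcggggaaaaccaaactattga
vha-12, exon 3, chrX:4191922-4192122: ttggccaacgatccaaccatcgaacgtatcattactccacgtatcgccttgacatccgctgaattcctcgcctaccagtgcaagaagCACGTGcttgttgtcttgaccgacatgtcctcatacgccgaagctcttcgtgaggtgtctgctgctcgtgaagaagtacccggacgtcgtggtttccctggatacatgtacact

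The vha-12 upstream window held 1 match, to CTGCGTC on the minus strand, which began 80 bp before the summit, and the vha-8 window held overlapping matches to GAGAGA that began 20 and 22 bp after it. At vha-13 GAGAGA matches began 29 bp before the summit and 4 bp after it. The window inside vha-12 held a CACGTG that began 13 bp before the summit, within coding sequence. Over the strongest pooled peak of each of the 7 genes that had one, CACGTG was found in 0 windows, TGATAA in 1 (vha-14), GAGAGA in 2 (vha-8 and vha-13) and CTGCGTC in 2 (vha-12 and vha-9). Over windows of the same length at all 29983 nuclear pooled summits the shares were 4.18%, 19.9%, 13.7% and 2.46%, and over the 384 nuclear IDR-thresholded summits 8.07%, 9.38%, 35.7% and 10.7%. The GC content was 46.8% in the vha-12 upstream window, 45.3% in that of vha-8 and 57.7% in that of vha-13, against medians of 37.3% over pooled and 47.3% over IDR-thresholded summits. Over all 17 pooled peaks of the 8 genes, the words were found in 2, 3, 4 and 2 windows. A match says only that these letters are present.

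The authors deposited 4 peak lists: 30000 peaks for each replicate, 30000 for both replicates pooled, and 400 that passed a threshold on the irreproducible discovery rate (IDR), a measure of agreement between replicates. The 400 IDR-thresholded peaks were exactly the 400 strongest of the pooled list. Each peak has a signal value on the authors' own scale, which differs between lists, so peaks are compared by rank within a list, with rank 1 the strongest. The lists give no read counts and the depth is unknown. An IDR-thresholded summit lay in the windows of 3 of the 8 genes, against 1.82% of all protein-coding genes. A pooled summit was present in 7 of 8, against 62.1% of protein-coding genes. Replicate 3 had a summit at the same number of genes, against 63.1%, and so did replicate 4, against 62.9%. Both replicates had one at 7 of 8, against 49.1%. The exception in each case was vha-11. These shares describe the genome by the same rule, and since earlier results chose the genes, nothing further is read from them. Each peak also has a deposited q-value, a p-value corrected for the number of tests. Outside vha-12, vha-13 and vha-8, that of the strongest pooled peak ran from 0.472 at vha-9 to 0.725 at vha-10. A summit in the pooled or replicate lists is therefore not by itself evidence of binding.

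**Figure D1:**
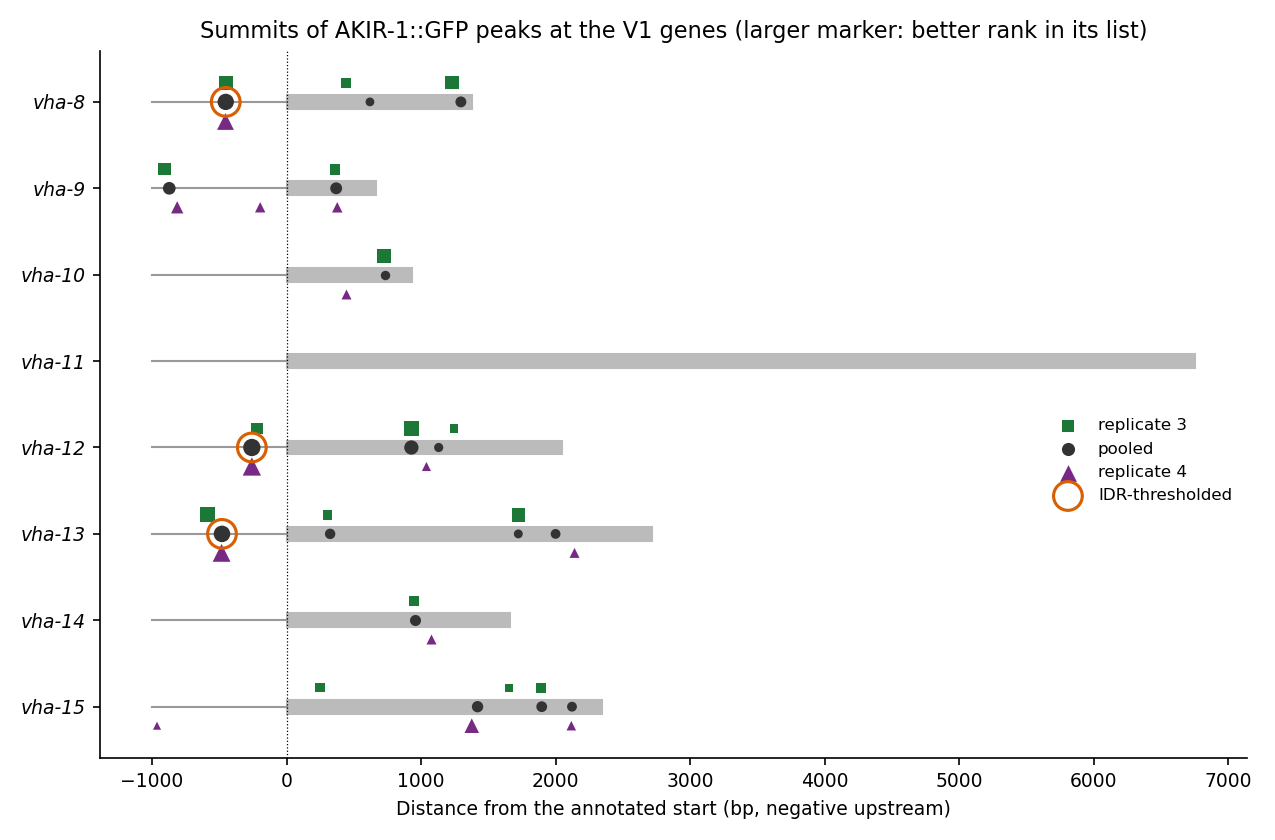
Summits in the windows of the 8 genes, by distance in bp from the annotated start (bars: gene body, lines: 1000 bp upstream). Squares are replicate 3, circles the pooled list, triangles replicate 4, larger for better ranks, and open circles mark the 3 IDR-thresholded peaks, at 258, 480 and 452 bp upstream of vha-12, vha-13 and vha-8.

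In the pooled list the genes of the ATP-hydrolysing head had the best ranks of the 8, with the outer stalk gene vha-8 close behind at rank 374. At vha-12 (WBGene00006921, chromosome X, 4191094 to 4193144, plus strand), which encodes the B subunit, the upstream peak from 4190646 to 4191025 had a pooled signal value of 138.4 and rank 184. Its deposited q-value was 0.0264. Its summit lay 258 bp upstream of the start in intergenic sequence, and the next nearest annotated start, of F20B6.4, was 3966 bp away. In replicate 4 the peak had a signal of 87.1 and rank 92. In replicate 3 it had a signal of 32.3 and rank 7041, with its summit 37 bp away. The upstream vha-12 peak was therefore among the 400 strongest of one replicate and far outside them in the other.

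Inside vha-12 the order of the replicates was the opposite. A peak from 4191832 to 4192211, with its summit 928 bp after the start in exon 3 of 4, had a pooled signal of 79.5 and rank 1433. In replicate 3 it had a signal of 53.3 and rank 690, the best of any peak at the 8 genes in that list. The replicate 4 peak that overlapped it had a signal of 22.9 and rank 18759, with its summit 112 bp away. The strongest peak of vha-12 was thus upstream in replicate 4 and in the pooled list and inside the gene in replicate 3. Another pooled peak, also in exon 3, ranked 18131 with a signal of 41.7 and overlapped the same pair of replicate peaks. It also overlapped a replicate 3 peak of rank 26997 and signal 20.5, whose summit, 1243 bp after the start, was nearer to its own.

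At vha-13 (WBGene00013025, chromosome V, 14351709 to 14354422, plus strand), which encodes the catalytic A subunit, the upstream peak from 14351039 to 14351418 had a pooled signal of 115.0, rank 329 and a q-value of 0.0472. Its summit lay 480 bp upstream of vha-13, inside the annotated 3′ UTR of cept-2, the gene before it on the same strand. The start of vha-13 was the nearest start to the summit, and that of cept-2 was 3463 bp away. In replicate 4 the peak had a signal of 78.9 and rank 131, with its summit 3 bp from the pooled one. In replicate 3 it had a signal of 50.4 and rank 874, with its summit 111 bp farther from vha-13. Both replicates placed it among the strongest 1000 peaks, which was not so for the upstream peak of vha-12.

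A further 3 pooled peaks lay inside vha-13, at ranks 10825, 14101 and 20372, all in coding exons. The one in exon 1, 324 bp after the start, ranked 14781 in replicate 3 and had no overlapping peak in replicate 4. Another, 1723 bp after the start in exon 3, ranked 2085 in replicate 3 and also had none in replicate 4. The peak 2000 bp after the start overlapped the same replicate 3 peak and a replicate 4 peak of rank 12943. Just outside the window, 62 bp past the annotated end of vha-13, lay another IDR-thresholded peak, from 14354294 to 14354673, with a signal of 112.6 and rank 353. Its summit was 74 bp after the start of the next gene, Y49A3A.3, in its coding sequence. It ranked 518 in replicate 3 and 707 in replicate 4, so the replicates differed less there than at the upstream peak.

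The outer stalk genes differed from each other. At vha-8 (WBGene00006917, chromosome IV, 6791074 to 6792455, plus strand), which encodes the E subunit, the upstream peak from 6790432 to 6790811 had a pooled signal of 110.0, rank 374 and a q-value of 0.0522. In replicate 4 it had a signal of 64.5 and rank 277, and in replicate 3 a signal of 46.8 and rank 1250. The summits of the replicates lay 9 and 1 bp from the pooled one, 452 bp upstream of vha-8. The peak was 134 bp from the start of C17H12.2, a gene on the opposite strand that points away from vha-8, so it lies in the stretch between a pair of divergent genes and nearer to the other one. Inside vha-8 the pooled peaks ranked 8569 in the 3′ UTR, with a signal of 52.6, and 20972 in exon 3, with a signal of 39.4. Both had an overlapping peak in replicate 3, at ranks 2906 and 11250, and none in replicate 4.

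At vha-10 (WBGene00006919, chromosome I, 5609341 to 5610270, minus strand), which encodes the G subunit, the only pooled peak in the window ranked 16485, with a signal of 43.2, in the 3′ UTR. In replicate 3 a peak there ranked 2892 with a signal of 39.7, and its summit was 8 bp from the pooled one. In replicate 4 the overlapping peak ranked 13318 with a signal of 25.8, and its summit was 287 bp away, in an intron. The start of ubl-5, which encodes a ubiquitin-like protein, was 697 bp from the pooled summit and nearer than that of vha-10. There was no summit in the 1000 bp upstream of vha-10 in any list. A pooled peak 30 bp past the gene end, outside the window, ranked 7405.

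The central rotor genes had peaks of middling rank that were similar in the 2 replicates. The pooled q-values were high, at 0.472 and 0.562 for vha-9 and 0.636 for vha-14. At vha-9 (WBGene00006918, chromosome II, 10303050 to 10303713, minus strand), which encodes the F subunit, the strongest pooled peak had a signal of 64.8 and rank 3573. It ranked 4181 in replicate 3, with a signal of 36.6, and 4370 in replicate 4, with a signal of 34.8. Its summit lay 872 bp upstream of vha-9 in an intron of gcy-4, a receptor-type guanylate cyclase gene of the same strand, and was nearer to starts of the non-coding RNA gene ZK970.10 (176 bp) and of tRNA genes (257 and 426 bp) than to vha-9. Another peak, in exon 3 of vha-9, had a signal of 58.9 and ranked 5384 in the pooled list, 10201 in replicate 3 and 10683 in replicate 4. Replicate 4 alone had a summit 196 bp upstream of vha-9, at rank 11244.

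At vha-14 (WBGene00010130, chromosome III, 9508100 to 9509757, plus strand), which encodes the D subunit, 1 pooled peak lay in the window, in exon 4 of 5, with a signal of 53.4 and rank 8052. It ranked 14138 in replicate 3, with a signal of 26.5, and 12994 in replicate 4, with a signal of 26.0. A stronger peak lay 169 bp past the gene end in intergenic sequence, at pooled rank 1533, replicate 3 rank 2311 and replicate 4 rank 2975. Neither rotor gene had an IDR-thresholded summit in the window.

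Of the genes for the C and H subunits, the first had no peak and the other had peaks toward its 3′ end. At vha-15 (WBGene00020507, chromosome X, 2237911 to 2240255, plus strand), which encodes the H subunit, 3 pooled peaks lay inside the gene, from 1420 to 2122 bp after the start, at ranks 7065, 9184 and 13767. The strongest, 1420 bp after the start in an intron, overlapped a replicate 4 peak of rank 1196 and signal 45.5 and a replicate 3 peak of rank 25158 and signal 21.2. The other pooled peaks, in exon 8, both overlapped a replicate 3 peak of rank 12287 and a replicate 4 peak of rank 15705. Replicate 3 alone had a summit 249 bp after the start, at rank 18717, and replicate 4 alone one 963 bp upstream, at rank 27073. A pooled summit 1006 bp upstream, 6 bp outside the window, ranked 24990. At vha-11 (WBGene00006920, chromosome IV, 2307815 to 2314567, minus strand), which encodes the C subunit, none of the 4 lists had a summit in a window of 7753 bp, the longest of the 8. The nearest summit outside the window was 6498 bp away in the pooled list, 16265 bp in replicate 3 and 2668 bp in replicate 4. Windows without a summit in any list made up 21.9% of those of all protein-coding genes and 16.3% of the 2012 that were at least as long. The neighbouring vha-3, a V0 gene on the same strand whose annotated end lies inside the vha-11 window, had none either.

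**Figure D2:**
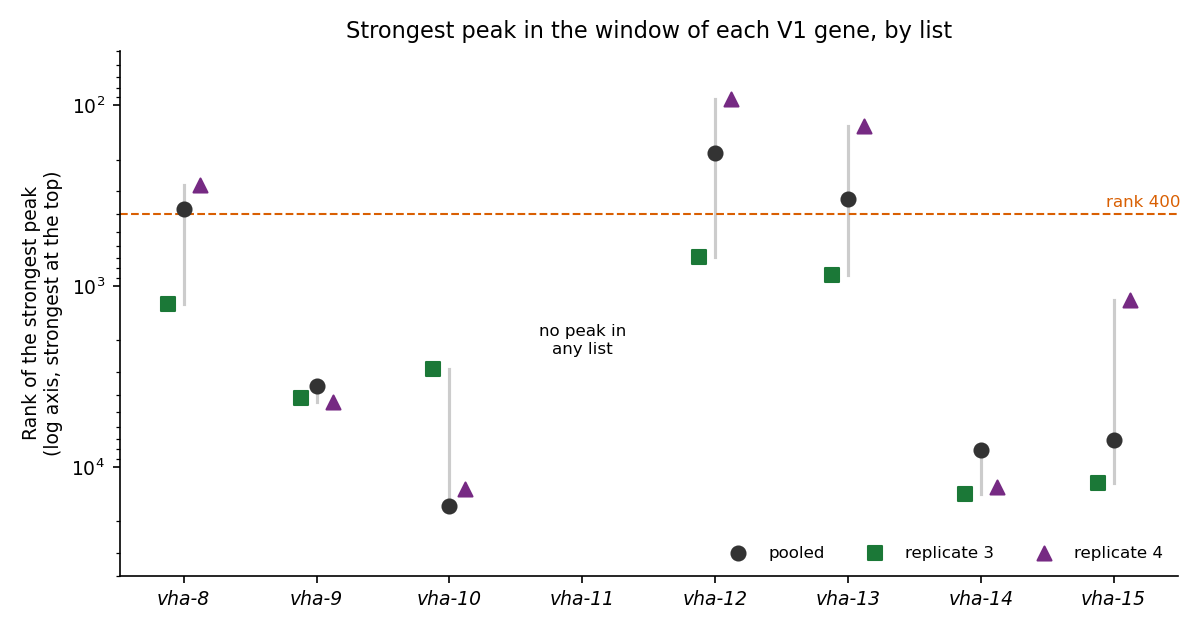
Rank of the strongest peak in the window of each gene in the pooled list (circles), replicate 3 (squares) and replicate 4 (triangles), on a log axis with the strongest at the top. The dashed line marks rank 400, which vha-12, vha-13 and vha-8 pass in the pooled list (184, 329 and 374) and in replicate 4 (92, 131 and 277), and no gene passes in replicate 3, where vha-12 is best at 690.

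In the pooled list the strongest peaks fell in the order vha-12 (rank 184), vha-13 (329), vha-8 (374), vha-9 (3573), vha-15 (7065), vha-14 (8052) and vha-10 (16485). The order was vha-12 (92), vha-13 (131), vha-8 (277), vha-15 (1196), vha-9 (4370), vha-14 (12994) and vha-10 (13318) in replicate 4. It was vha-12 (690), vha-13 (874), vha-8 (1250), vha-10 (2892), vha-9 (4181), vha-15 (12287) and vha-14 (14138) in replicate 3. The same 3 genes led in both replicates, but in replicate 3 the vha-12 value comes from the exon and not from the upstream peak. In the pooled order the ranks of vha-12, vha-13 and vha-8 lay closer together than the replicate ranks of any of these genes. The middle gene of the 7 ranked 3573 in the pooled list, 2892 in replicate 3 and 1196 in replicate 4, where the medians over all protein-coding genes with a peak were 10160, 10000 and 10268. At vha-12, 0.796% of all protein-coding genes had a pooled peak of that rank or better, at vha-13 1.48% and at vha-8 1.68%. For vha-9 the share was 13.4%, and for vha-10 it was 43.8%.

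**Figure D3:**
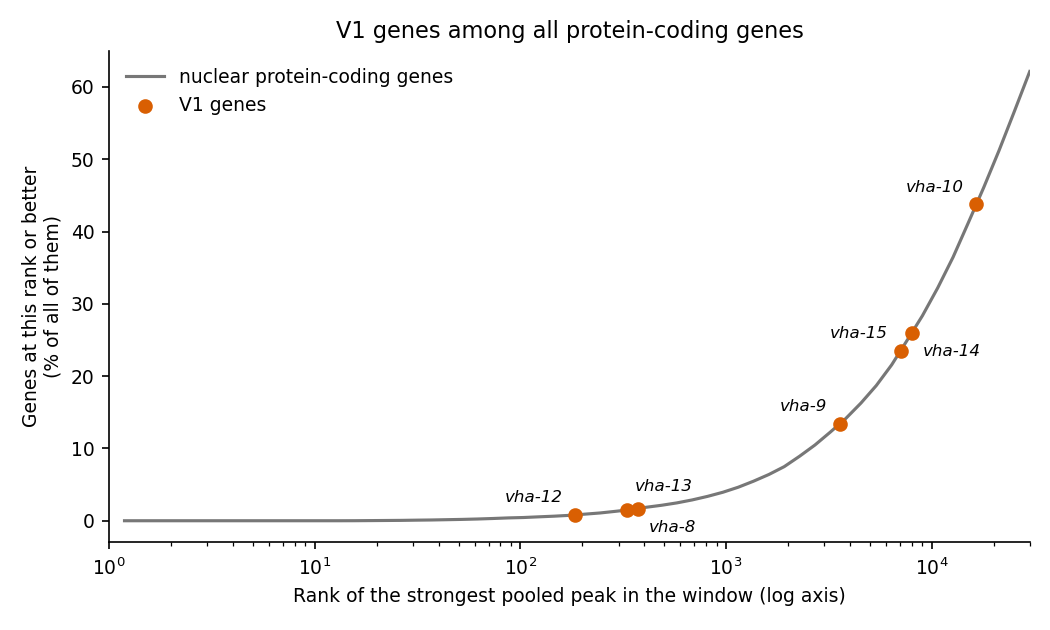
Share of nuclear protein-coding genes (vertical axis, %) whose strongest pooled peak in the window has a given rank or a better one (horizontal log axis), with the 7 V1 genes that have a pooled peak as points. vha-12, vha-13 and vha-8 lie at 0.796%, 1.48% and 1.68%, and vha-10 at 43.8%.

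The 8 windows together held 17 pooled, 16 replicate 3 and 13 replicate 4 peaks. That was 0.642 pooled peaks per kb of window, against 0.312 over all protein-coding genes, while the median window was 2854 bp for the V1 genes and 3027 bp for all. Both rates divide by the total window length, so long genes weigh most in the genome value. The similar medians therefore do not make the rates comparable. Of the 17 pooled peaks, 5 were among the strongest 4000 of the 30000 in the list, and 3 of these 5 were the IDR-thresholded peaks. All 17 overlapped a replicate 3 peak by at least 1 bp, as did 71% of all nuclear pooled peaks. A replicate 4 peak overlapped 13 of the 17 (76.5%), near the 69.9% of all nuclear pooled peaks. These 13 thus overlapped both replicates, where 45.9% of all nuclear pooled peaks did. Where several replicate peaks overlapped a pooled peak, the strongest was taken as its match. The 13 then rest on 11 distinct peaks in each replicate, since neighbouring pooled peaks in vha-12 and vha-15 share matches. The pooled list was made from both replicates, so this is no independent measure of agreement. Taken from the replicate lists alone, 11 of the 16 replicate 3 peaks overlapped a replicate 4 peak (68.8%, against 46.3% of nuclear peaks), and 10 of 13 did in the other direction (76.9%, against 46.8%).

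The strength of the overlapping peaks was compared next. Over the 13 shared peaks the log2 signal values of the replicates had Pearson's r = 0.06 and Spearman's rho = -0.15, a description in which several points share a replicate peak. With the overlapping peak of the nearest summit as the match, the values were r = 0.28 and rho = 0.25, so the sign of this weak relation depended on the match. Over the strongest peak of each of the 7 genes, the rank correlation between replicates was rho = 0.75. The genes that led both orders, vha-12, vha-13 and vha-8, hold the IDR-thresholded peaks, and IDR is a measure of replicate agreement. Part of this correlation is thus built in. This value compares genes and not shared peaks, since the strongest peak was not always the same one. At vha-12 its summit lay 928 bp from the start in replicate 3 and -258 bp in replicate 4. At vha-15 it lay at 1894 and 1377 bp. The upstream and the inner peaks differed in which replicate ranked them better. Of the 4 pooled peaks upstream of a start, 3 ranked better in replicate 4. Of the 13 inside the genes, 11 ranked better in replicate 3 or were found in replicate 3 alone. Over all protein-coding genes, replicate 3 ranked 51.8% of pooled peaks inside genes and 48.4% of those upstream better. The side on which the replicates differed was noticed after the values were seen, and some peaks share a replicate 3 peak. With each replicate 3 peak counted once, the number was 8 of 10 (80%, against 84.6%). With the nearest summit as the match it was 10 of 13, as the vha-12 peak of pooled rank 18131 changed sides.

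**Figure D4:**
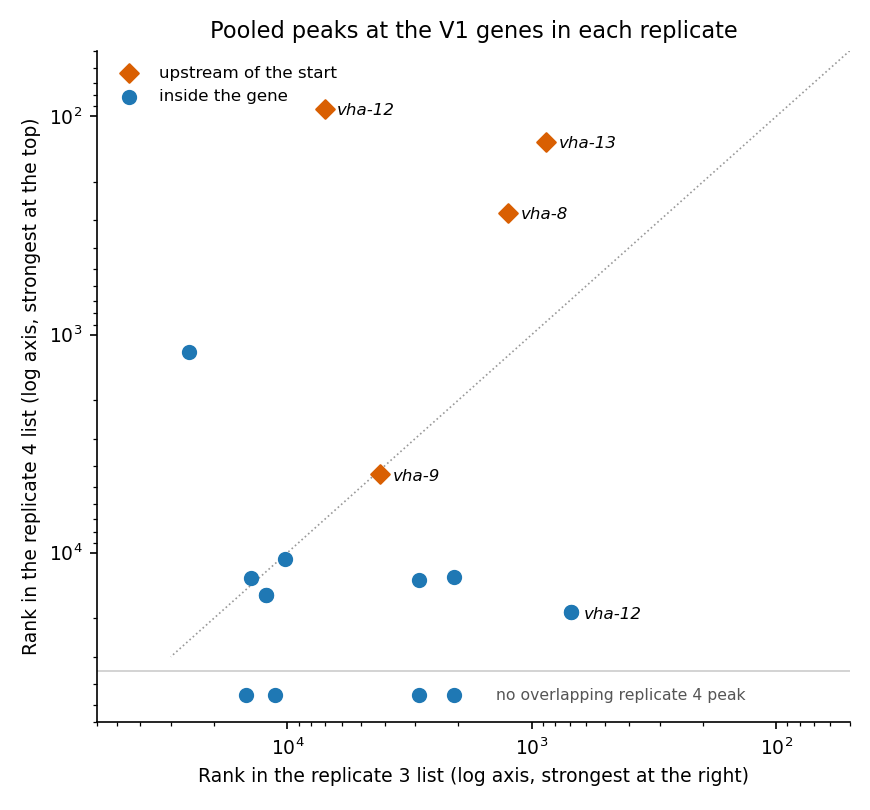
Rank of each pooled peak at the V1 genes in the replicate 3 list (horizontal) and the replicate 4 list (vertical), both on log axes with the strongest toward the upper right, with diamonds for peaks upstream of the start and circles for those inside the gene. Peaks that overlap the same replicate peaks coincide, 4 circles below the grey line had no replicate 4 peak, and the upstream peaks of vha-12, vha-13 and vha-8 lie above the dotted line of equal rank.

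For the 3 leading genes, the gene with the most similar ranks was sought among 7868 protein-coding genes of chromosomes II to V and X with a peak in the pooled and both replicate lists. The measure was the sum over these 3 lists of the absolute log2 rank difference. For vha-12 it was atx-2, which encodes the worm ataxin-2, on chromosome III, with ranks of 217, 776 and 72 and a sum of 0.76. For vha-8 it was C17H12.2, with a sum of 0.00 because both genes share the same peaks, and the first gene that shared none was T24B8.3 on chromosome II, with 383, 1287 and 230 and a sum of 0.34. For vha-13 it was cept-2, with 306, 716 and 131 and a sum of 0.39. The window of cept-2 also holds the peak upstream of vha-13, which supplies its value in replicate 4. The first gene that shared no strongest peak with vha-13 was ZK563.2 on chromosome X, with 260, 856 and 117 and a sum of 0.53.

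The other 14 V-ATPase genes comprise the V0 sector with its accessory proteins, and vha-18 and spe-5, further V1 genes. An IDR-thresholded summit was in the window of 1 of the 14, against 1.82% of all protein-coding genes. This was vha-2, which encodes a proteolipid subunit of the membrane ring. A pooled summit was present in 10 of 14, against 62.1%, and both replicates had one in 11 of 14, against 49.1%. The vha-2 peak had a signal of 121.0 and rank 283, with its summit 196 bp after the start in exon 1. It ranked 128 in replicate 3 and 6192 in replicate 4, the reverse of the order at the upstream peak of vha-12. A further pooled peak at the 3′ end of vha-2, at rank 419, ranked 4659 in replicate 3 and 268 in replicate 4. Its summit also lay in the 5′ UTR of R10E11.6, whose start, 124 bp away, was nearer than that of vha-2, 966 bp away. After vha-2 the best pooled ranks were 1384 at spe-5, a B subunit gene known for its role in sperm, 2560 at vha-5 and 3972 at vha-6, both of which encode a subunits of V0. The median of the strongest ranks was 5064 over the 10 genes in the pooled list, and it was 4182 in replicate 3 and 13253 in replicate 4, each over 12 genes. The best pooled peak lay upstream of the start in 3 of the 10 genes that had one (vha-1, unc-32 and vha-18), and in 4 of the 7 V1 genes that had one (vha-8, vha-9, vha-12 and vha-13). The split was narrow at unc-32, 20 bp upstream, and at spe-5 and vha-20, 62 and 68 bp after the start. The share over all protein-coding genes was not computed, and the V1 genes were chosen with some peaks known. Nothing is read from these counts. No test of V1 against the other genes was made.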

How the data were processed

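Whole-worm chromatin immunoprecipitation of AKIR-1::GFP was analysed from 2 biological replicates. The labels give sonication and a fragment size range of 200 to 800. Per the texts deposited with the replicate lists, peaks were called on ce11 for each replicate and for both pooled, each with 1 further alignment set, and the IDR-thresholded list was derived from those 3. Which aligner and caller were used, and at which IDR threshold, is not given in the sources used here. Peak signal has an unstated scale that the authors set, and it served to rank peaks inside each list, except for a description of replicate agreement on a log2 scale. The deposited −log10 q-value was turned into a q-value and only described. 

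Genes came from Ensembl release 115, and sequence from the RefSeq assembly of the same build. Positions count from 1. Members and gene lists were chosen with earlier results of these data known. Named were all 8 members, other V-ATPase genes with an IDR-thresholded summit or the 4 best pooled ranks, genes with a start nearer to a strongest summit, and the genes nearest in rank. The genes nearest in rank that share no peak, the side of the start on which replicates differed, the neighbour vha-3, the gaps around vha-11 and summits just outside a window were chosen after values were seen. Window assignment recovered 200 of 200 simulated summits, and 4 of 4 overlap counts equalled those of bedtools 2.31.1. The simulated summits were placed inside the same windows, so this checks the lookup and not the annotation or the coordinates. Python 3.11.15, numpy 2.4.6, pandas 2.3.3 and matplotlib 3.10.9 were used. A replicate peak was matched to a pooled peak by an overlap of at least 1 bp, the strongest first. Alternatives were other windows, matches, overlaps, numbers of peaks and single replicates.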

Additional observations from a re-analysis of the deposited data

How the results depend on the processing

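The lists hold no read counts, so no counting error can be given, and with 1 group of 2 replicates no value has a test. No paired analysis was possible because there is 1 group only. The number of V1 genes with an IDR-thresholded summit, 3, was the same with 500 bp upstream to 100 bp downstream of a start, with 2000 bp upstream and with any overlap. The 400 strongest pooled peaks are the same peaks, so that alternative could not change it. It was 1 (vha-12) with the stronger 200 peaks, 2 with the gene of the nearest start only, and 0 with 250 bp on either side of a start. With the 400 strongest peaks of a single replicate it ranged from 0 (replicate 3 alone) to 3 (replicate 4 alone). For the other 14 genes the count of 1 became 0 with 500 bp upstream to 100 bp downstream and with the stronger 200 peaks, and stayed at 1 with either single replicate. The gene was vha-2 each time, but the peak was not the same. In replicate 4 it was the peak at the 3′ end, at rank 268, while the peak in exon 1 ranked 6192. The 7 V1 genes with a summit in both replicates became 2 with 500 bp upstream to 100 bp downstream, 0 with 250 bp on either side, 3 among the 4000 strongest peaks of each replicate and 4 among the 10000 strongest. Of the pooled peaks found in both replicates, 13 became 8 with an overlap of 50%, 4 with summits within 100 bp, 2 among the 4000 strongest and 4 among the 10000 strongest, and single replicates gave 13 to 17. The median rank of the strongest peak was 329 with 500 bp upstream to 100 bp downstream, where 3 genes had a peak, and ranged from 1196 to 2892 over single replicates. The strongest vha-12 summit moved from -258 bp relative to the start to 928 bp without replicate 4. The 11 of 13 inner peaks ranked better in replicate 3 became 8 of 13 with an overlap of 50%, 8 of 11 with summits within 100 bp, 8 of 10 with each replicate 3 peak counted once and 10 of 13 with the nearest summit as the match, alternatives chosen after seeing the data. Over single genes, 15 of 24 alternative ranks and 15 of 21 distances stayed within 1 SD of the replicates. That SD comes from the same 2 replicate values that served as alternatives, and it grows as they disagree. It is therefore no independent measure of stability. Each of these genes has 1 annotated start, so the start of the longest transcript, an alternative for the distances, could not change them. Shares over all protein-coding genes or all pooled peaks were computed for the main window and match only. The changes in the member counts therefore cannot be set against those of the genome under the same alternatives. The cause of the differences between settings was not tested.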

Other observations

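The vha-13 locus carried 3 IDR-thresholded peaks across the same-strand genes cept-2, vha-13 and Y49A3A.3. One had its summit 304 bp upstream of cept-2, with a signal of 117.9 and rank 306, the next lay in the cept-2 3′ UTR upstream of vha-13, and the last lay 62 bp past the end of vha-13 at the start of Y49A3A.3. Inside vha-13 itself the best pooled rank was 10825.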
